A study of Homo sapiens with 2 samples.

Results

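Long intergenic non-coding RNAs with a systematic LINC symbol were followed in cultured human mesenchymal stromal cells with and without transforming growth factor beta 1 (TGFB1). Of 2245 genes whose symbol is LINC followed by digits, 1530 had a unique molecular identifier (UMI) in at least 1 cell, and 88 reached 5 CPM (UMIs of the gene per 1000000 UMIs of the library) in either library. These 88 are described here. They were chosen by the CPM of each library, so their levels and library ratios are descriptions of chosen genes. In all, 63 of the 88 reached 5 CPM in both libraries, 12 only in the TGFB1 library and 13 only in the untreated library, and those 25 had to differ to some degree in order to be chosen through 1 library.

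A LINC symbol is given to a long non-coding transcript that lies between protein-coding genes and has no established function to be named after. Such RNAs are mostly transcribed by RNA polymerase II, many stay in the nucleus, and they are typically present at lower copy number and in fewer cell types than messenger RNAs. Some act on chromatin or on RNA-binding proteins, some host small or circular RNAs, some encode micropeptides, and for many no role is known. TGFB1, a secreted cytokine, acts on fibroblasts and other stromal cells through receptor kinases and SMAD proteins, and drives them toward matrix production and contraction.

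The cells were a commercial stock of mesenchymal stem cells from adipose tissue, and the 2 libraries came from plates that were starved overnight. One plate then received TGFB1 at 10 ng/mL for 24 hours and the other was left untreated. Transcripts of single cells were counted with the 10x droplet method, with 1 library per condition, so the treatment cannot be told apart from differences between the plates or libraries, and no test between them was possible. In the TGFB1 library 12555 cells gave 208991941 UMIs (median 15134 per cell), and in the untreated library 8101 cells gave 169011524 UMIs (median 19249 per cell). All 8 mesenchymal stromal markers examined (among them COL1A1, COL1A2, THY1 and DCN) were at 5 CPM or more over whole libraries. The lowest of them, ENG, had 7.85 CPM with TGFB1 and 6.67 CPM untreated. In the clusters described below, ENG was between 1.05 and 3.66 CPM in clusters 0 to 4 and at 249 CPM in cluster 9. All endothelial, leukocyte, adipocyte and neural markers examined were below 5 CPM, as were the mural markers over whole libraries. Of the epithelial markers KRT18 alone reached it. A total of 18 cell barcodes occurred in both libraries. The intervals given are at 95%, reflect counting error alone and say nothing of how another plate would vary.

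The start regions of 6 of these genes are printed before their values, to set the sequences of genes that differ between the libraries side by side. LINC01705 and LINC00545 had the largest ratios of TGFB1 over untreated, and LINC02511 had the smallest. LINC00607 and LINC01191, both higher with TGFB1, and LINC02861, lower, carried letters of a motif that was searched. Each window runs from 250 bases before to 50 bases after the start of the gene in RefSeq (GRCh38.p14), read 5′ to 3′ on the strand of the gene. The windows are chr1:222059344-222059643 (minus strand) for LINC01705, chr13:30882312-30882611 (plus strand) for LINC00545, chr2:215843487-215843786 (minus strand) for LINC00607, chr2:113969072-113969371 (plus strand) for LINC01191, chr4:137212750-137213049 (minus strand) for LINC02511 and chr16:3950395-3950694 (minus strand) for LINC02861. Capitals mark the motif letters found, read on either strand: TGANTCA, bound by AP-1, CATTCC, bound by TEAD factors, and GTCTGNCT, a SMAD repeat.
LINC01705: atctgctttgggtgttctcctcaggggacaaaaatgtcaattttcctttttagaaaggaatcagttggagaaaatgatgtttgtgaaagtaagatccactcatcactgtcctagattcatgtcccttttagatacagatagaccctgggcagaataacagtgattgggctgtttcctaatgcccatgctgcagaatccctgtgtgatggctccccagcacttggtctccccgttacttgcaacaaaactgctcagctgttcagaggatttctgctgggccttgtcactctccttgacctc
LINC00545: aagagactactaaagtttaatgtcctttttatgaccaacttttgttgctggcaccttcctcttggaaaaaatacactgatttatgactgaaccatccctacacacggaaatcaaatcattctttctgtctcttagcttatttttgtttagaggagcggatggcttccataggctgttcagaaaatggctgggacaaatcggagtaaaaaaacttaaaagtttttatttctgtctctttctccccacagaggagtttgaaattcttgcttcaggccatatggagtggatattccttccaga
LINC00607: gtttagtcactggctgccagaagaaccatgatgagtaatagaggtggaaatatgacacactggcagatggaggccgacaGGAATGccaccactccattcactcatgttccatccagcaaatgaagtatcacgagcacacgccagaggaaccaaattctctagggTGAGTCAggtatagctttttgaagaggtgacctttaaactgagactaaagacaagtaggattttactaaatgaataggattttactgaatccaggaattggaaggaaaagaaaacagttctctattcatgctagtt
LINC01191: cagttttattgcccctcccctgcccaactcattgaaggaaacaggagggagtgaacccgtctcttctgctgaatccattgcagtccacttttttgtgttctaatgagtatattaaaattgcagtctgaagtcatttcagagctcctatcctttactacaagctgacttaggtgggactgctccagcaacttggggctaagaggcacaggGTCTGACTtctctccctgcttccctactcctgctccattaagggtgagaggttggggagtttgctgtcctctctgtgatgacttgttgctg
LINC02511: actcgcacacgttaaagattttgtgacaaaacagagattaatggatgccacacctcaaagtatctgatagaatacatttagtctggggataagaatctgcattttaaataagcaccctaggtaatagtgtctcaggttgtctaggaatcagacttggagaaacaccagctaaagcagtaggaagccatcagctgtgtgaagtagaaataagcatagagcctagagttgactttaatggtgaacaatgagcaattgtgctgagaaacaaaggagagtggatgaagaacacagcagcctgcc
LINC02861: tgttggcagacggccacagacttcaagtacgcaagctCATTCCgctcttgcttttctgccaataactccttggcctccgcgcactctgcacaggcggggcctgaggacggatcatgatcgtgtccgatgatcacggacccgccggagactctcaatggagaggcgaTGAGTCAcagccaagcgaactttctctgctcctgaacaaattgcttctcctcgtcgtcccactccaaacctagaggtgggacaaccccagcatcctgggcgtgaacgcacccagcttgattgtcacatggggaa

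Counted from 1 at the 5′ end of the window, LINC00607 had the TEAD letters on its other strand at bases 80 to 85 and the AP-1 letters at bases 165 to 171. LINC02861, listed in RefSeq as TRIDDENT, had both motifs as well, the TEAD letters at bases 38 to 43 and the AP-1 letters at bases 167 to 173, although its ratio lay on the other side of 1. LINC01191 had the SMAD repeat at bases 210 to 217. The windows of LINC01705, LINC00545 and LINC02511 held none of the 4 letter patterns searched, the fourth being the SMAD palindrome GTCTAGAC.

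A RefSeq promoter window was at hand for 66 of the 88 genes. The AP-1 letters were in 12 of these 66 windows (18.2%), against 7.73% of the 27195 windows of the same length in the table. The TEAD letters were in 10 (15.2%, against 14.0% of all windows), the SMAD repeat in 2 (3.03%, against 4.67%) and the SMAD palindrome in 0 (against 0.195%). The 4 patterns differ, and the matches did not overlap in the printed windows. Among the genes at least 2-fold apart, the AP-1 letters were in 2 of 8 windows of the genes higher with TGFB1 and in 1 of 8 windows of the genes lower with it, and the TEAD letters were likewise in 2 and in 1.

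Across the libraries the 88 genes spread widely in both directions. In the TGFB1 library 9 genes were at least 2-fold higher, against a background of 3.61% of the 10927 genes at 5 CPM or more, and 9 were at least 2-fold lower, against 6.05%. In share, this is 10.2% of the 88 in each direction; 9.66% of all genes were 2-fold apart in either. Of these 18 genes, 11 reached 5 CPM in 1 library only, 6 of the higher ones and 5 of the lower ones. The median log2 ratio of the 88 genes was -0.03, with quartiles at -0.47 and 0.49, beside -0.10 with quartiles at -0.37 and 0.15 over all genes; it turned to 0.12 with trimmed-mean (TMM) scaling and 0.16 with median-of-ratios scaling. Those scalings raised the log2 ratio of every gene by 0.15 and 0.19. They put 12 LINC genes at 2-fold or more higher and 7 lower with TMM, and 14 higher and 7 lower with the median of ratios, where all genes split 524 to 503 and 566 to 480 in place of 395 to 661. In all, 53 of the 88 lay within 1.5-fold. The share of all genes within 1.5-fold was not computed, but the quartiles above lie further apart for the 88 genes than for all genes.

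**Figure D1:**
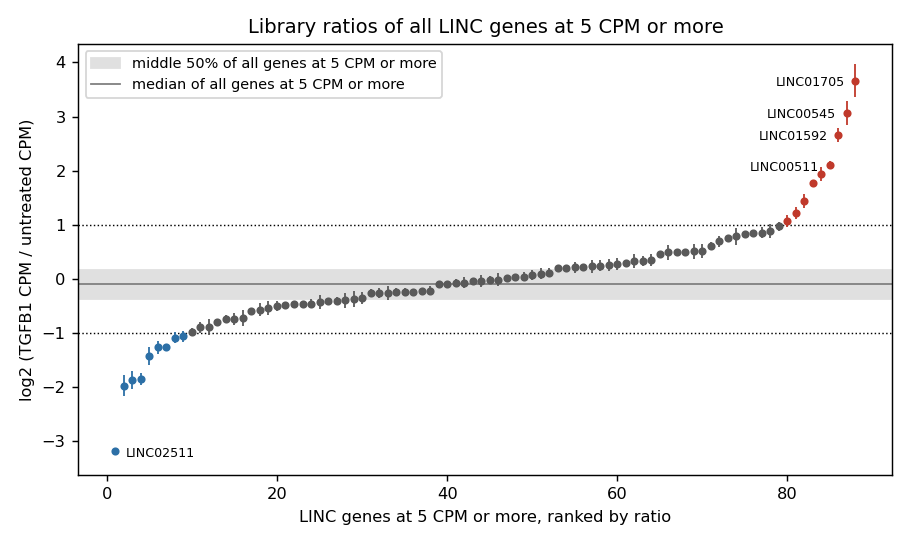
log2 ratio of CPM, TGFB1 over untreated, of all 88 LINC genes in order of ratio, with exact 95% intervals for counting error. The grey band is the middle 50% of all 10927 genes at 5 CPM or more, from -0.37 to 0.15, and dotted lines mark a 2-fold difference; 9 LINC genes lie beyond each line.

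Of the other transcript classes with their own naming, 13 of 220 antisense-named long non-coding RNAs at 5 CPM were 2-fold higher and 26 lower, with a median log2 ratio of -0.19. Among 69 transcripts named as divergent from a coding gene, 1 was higher and 6 were lower, and the median was -0.35. Among 22 microRNA host genes, 5 were higher, 2 lower, and the median was 0.47. Protein-coding genes, 10017 in number, were 2-fold higher in 3.25% and lower in 5.71%. LINC genes with more UMIs were also found on both sides: of 31 at 20 CPM or more, 3 (9.68%) were at least 2-fold higher and 2 (6.45%) lower, beside 3.85% and 4.79% of all 6679 genes at that level.

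Of the 88 genes, 4 were at least 5-fold apart: LINC01705, LINC00545 and LINC01592, higher with TGFB1, and LINC02511, lower; 1.37% of all genes were as far apart (0.503% higher and 0.869% lower). LINC01705, on chromosome 1 at chr1:222041704-222059393, had 1490 UMIs in the TGFB1 library and 95 in the untreated one. That is 7.13 CPM (6.77 to 7.50) with TGFB1 and 0.562 CPM (0.455 to 0.687) untreated, a ratio of 12.7 (10.3 to 15.8). It was seen in 7.47% of TGFB1 cells and 0.889% of untreated cells, and after every cell was thinned to 7500 UMIs in 4.02% and 0.405%. The gene was thus rare in single cells of both libraries, and its share of cells differed at equal depth as well.

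LINC00545, on chromosome 13 at chr13:30882562-30883395, had 8.97 CPM (8.57 to 9.38) with TGFB1 and 1.07 CPM (0.921 to 1.24) untreated, a ratio of 8.37 (7.19 to 9.81). At equal depth it was seen in 5.92% of TGFB1 cells and 0.994% of untreated cells. LINC01592, on chromosome 8, had 20.6 CPM (19.96 to 21.2) with TGFB1 and 3.25 CPM (2.99 to 3.54) untreated, a ratio of 6.32 (5.78 to 6.92). At equal depth its share of cells was 9.16% with TGFB1 and 1.37% untreated. These genes, like LINC01705, passed the 5 CPM minimum through the TGFB1 library alone.

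LINC02511 had the widest gap among the genes lower with TGFB1. It lies on chromosome 4 at chr4:136795902-137212799, and had 1876 UMIs in the TGFB1 library and 13888 in the untreated one. That is 8.98 CPM (8.57 to 9.39) with TGFB1 and 82.2 CPM (80.8 to 83.6) untreated, 9.15-fold lower (8.72 to 9.61). At equal depth it was seen in 5.05% of TGFB1 cells and 29.9% of untreated cells. Cells with at least 1 of its UMIs held a mean of 1.67 with TGFB1 and 3.79 untreated before thinning, and 1.32 and 2.07 at equal depth.

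**Figure D2:**
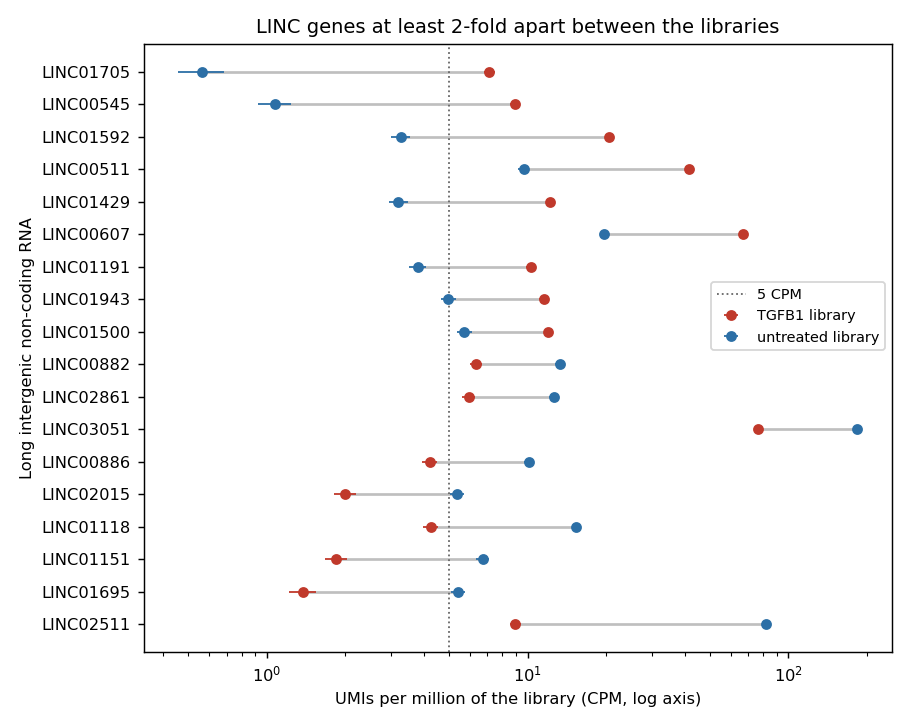
CPM of the 18 LINC genes at least 2-fold apart in the TGFB1 library (red) and the untreated library (blue), on a log axis, with exact 95% Poisson intervals as horizontal lines. LINC01705, at 7.13 CPM with TGFB1 against 0.562 CPM untreated, and LINC02511, at 8.98 CPM with TGFB1 against 82.2 CPM untreated, are the widest pairs in each direction, and the dotted line marks the 5 CPM minimum.

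Among the other genes higher with TGFB1, LINC00511 and LINC00607 gave the most UMIs. LINC00511, reported in many tumour types and located in the gene desert that leads to SOX9 on chromosome 17, had 41.4 CPM (40.5 to 42.3) with TGFB1 and 9.65 CPM (9.19 to 10.1) untreated. Its ratio was 4.29 (4.07 to 4.53), and at equal depth it was seen in 22.1% of TGFB1 cells and 5.25% of untreated cells. LINC00607, known from endothelial cells and lying near the fibronectin gene FN1 on chromosome 2, had 67.2 CPM (66.1 to 68.3) with TGFB1 and 19.7 CPM (19.03 to 20.4) untreated. Its ratio was 3.41 (3.29 to 3.55), and it was seen in 29.9% of TGFB1 cells and 10.9% of untreated cells at equal depth. Cells with LINC00607 held a mean of 2.63 of its UMIs with TGFB1 and 1.71 untreated, before thinning.

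The last 4 genes higher with TGFB1 stood near the 5 CPM minimum in the untreated library. LINC01429 had 12.2 CPM with TGFB1 and 3.19 CPM untreated (ratio 3.83, 3.49 to 4.21). LINC01191 had 10.3 and 3.78 CPM (ratio 2.71, 2.48 to 2.97). LINC01943 had 11.5 CPM with TGFB1 and 4.96 CPM untreated (ratio 2.32, 2.14 to 2.51). LINC01500 had 11.98 CPM with TGFB1 and 5.72 CPM untreated (ratio 2.10, 1.95 to 2.26), and its log2 ratio of 1.07 became 0.98 when cells holding an MKI67 or TOP2A UMI, markers of cycling cells, were left out.

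On the lower side, LINC03051 gave by far the most UMIs. It had 76.7 CPM (75.5 to 77.9) with TGFB1 and 183 CPM (181 to 185) untreated, 2.39-fold lower (2.35 to 2.44). It was a common transcript in both libraries, seen in 31.7% of TGFB1 cells and 52.3% of untreated cells at equal depth, and its positive cells held a mean of 2.96 UMIs with TGFB1 and 5.59 untreated, before thinning. LINC01118 had 4.24 CPM with TGFB1 and 15.3 CPM untreated, 3.61-fold lower (3.35 to 3.90). LINC01695 had 1.37 CPM with TGFB1 and 5.40 CPM untreated, 3.93-fold lower (3.44 to 4.51). LINC01151 had 1.84 CPM with TGFB1 and 6.73 CPM untreated, 3.65-fold lower (3.25 to 4.11). These last 3 were seen in 2.94%, 0.954% and 1.29% of TGFB1 cells at equal depth, against 10.1%, 3.17% and 4.55% of untreated cells.

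LINC02015 had 1.99 CPM with TGFB1 and 5.36 CPM untreated, 2.69-fold lower (2.40 to 3.03). LINC00886 had 4.21 CPM with TGFB1 and 10.1 CPM untreated, 2.40-fold lower (2.22 to 2.61). LINC02861 and LINC00882 were close to the 2-fold line: LINC02861 had 5.93 CPM with TGFB1 and 12.6 CPM untreated (log2 ratio -1.09), and LINC00882 had 6.35 CPM with TGFB1 and 13.3 CPM untreated (log2 ratio -1.07). Under both other scalings each was within 2-fold, at -0.93 and -0.90 for LINC02861 and at -0.91 and -0.87 for LINC00882. At equal depth the share of cells with a UMI differed in the direction of the CPM for all 18 genes that were 2-fold apart. The thinned UMIs are drawn from those that gave the CPM, so this is a description and not separate evidence. The like share over all genes 2-fold apart was not computed.

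The remaining 70 genes lay between -0.98 and 0.97 in log2 ratio. Most of the genes with the highest counts were among them. LINC00578, which gave the most UMIs of all, had 124 CPM (123 to 126) with TGFB1 and 172 CPM (170 to 174) untreated, a log2 ratio of -0.47. LINC01133, reported to bind the splicing factor SRSF6 in colorectal cancer cells, had 78.9 CPM with TGFB1 and 110 CPM untreated, a log2 ratio of -0.48. LINC01116, which lies at the edge of the HOXD gene cluster, had 81.1 CPM with TGFB1 and 80.2 CPM untreated, and the interval of its ratio (0.989 to 1.04) held 1.

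LINC00842 had 65.8 CPM with TGFB1 and 36.7 CPM untreated (ratio 1.80, 1.74 to 1.85), and LINC00662 had 62.9 and 37.5 CPM (ratio 1.68, 1.63 to 1.73). LINC00632, the host transcript of the circular RNA CDR1as, had 52.1 CPM with TGFB1 and 37.1 CPM untreated (ratio 1.40, 1.36 to 1.45). LINC01278 had 48.7 CPM with TGFB1 and 39.6 CPM untreated, and LINC00513 had 56.5 and 49.0 CPM. LINC01239 had 70.5 CPM with TGFB1 and 61.5 CPM untreated, and LINC03009 had 56.7 and 55.2 CPM, the pair of LINC03009 within counting error (ratio 0.999 to 1.05). CPM is not divided by transcript length, so the order of these genes by CPM is an order of UMIs and not of molar levels.

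Nearest to the minimum on its upper side were LINC00654 with 3.93 CPM with TGFB1 and 5.09 CPM untreated, LINC02929 with 5.05 and 2.94 CPM, and LINC02245 with 5.02 and 3.59 CPM. Just outside were LINC02798 with 4.68 CPM with TGFB1 and 4.98 CPM untreated, LINC02057 with 2.88 and 4.91 CPM, and LINC00484 with 1.94 and 4.89 CPM. Below the minimum, the 162 LINC rows with at least 1 CPM but under 5 CPM had a median log2 ratio of -0.58. Of these, 7 were 2-fold higher (4.32%) and 49 were 2-fold lower (30.2%), beside 5.25% and 14.9% of all 3791 genes in that range of CPM, whose median was -0.28.

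The class as a whole made up a small part of the RNA. All LINC rows together gave 2162 CPM (2156 to 2168) with TGFB1 and 2395 CPM (2388 to 2403) untreated, a ratio of 0.903 (0.899 to 0.906); with TMM scaling the ratio was 1.00 and with the median of ratios 1.03, so its direction depends on the scaling. The 88 genes held 82.9% of these UMIs with TGFB1 and 79.1% untreated. A cell held UMIs of a median of 16 of the 88 genes with TGFB1 and 19 untreated. Thinned to 7500 UMIs, which 9330 TGFB1 cells and 7646 untreated cells had, the medians were 10 with TGFB1 and 10 untreated.

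The share of cells with a UMI varied widely among the 88 genes. Over the 88 genes the share of cells with a UMI ran between 2.01% and 59.1% with TGFB1 and between 0.889% and 76.7% untreated, with medians of 14.2% and 18.3%. At equal depth these medians were 7.34% with TGFB1 and 8.13% untreated. No cell type in the culture could be taken to lack these genes, so the share that free RNA in the droplets gives could not be measured. Shares near the low end of the range are therefore no sign of expression in those cells.

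At 7500 UMIs per cell, the Fano factor (variance over mean, 1 for Poisson counts) had a median over the 88 genes of 1.10 with TGFB1 and 1.12 untreated. The median gene had a mean of only 0.0857 UMIs per thinned TGFB1 cell and 0.0900 per thinned untreated cell; at so low a mean the factor tends to lie near 1 even where cells differ, so its median is given as a description. LINC00578 had the highest in both libraries, 3.59 with TGFB1 and 4.47 untreated. Its UMIs were in 36.8% of TGFB1 cells and 38.8% of untreated cells, where Poisson counts of the same mean would be in 59.3% and 68.7%. Within single clusters its Fano factor was 3.64 in cluster 0 and 4.65 in cluster 1, but 0.995 in cluster 10, where 30.9% of cells held a UMI and Poisson counts would give 30.5%.

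LINC01592 had a Fano factor of 2.97 with TGFB1 and 1.89 untreated, and a single thinned cell held up to 26 of its UMIs with TGFB1 and up to 6 untreated. LINC02511 had 1.84 with TGFB1 and 3.22 untreated, LINC03051 2.04 and 2.75, and LINC01239 2.16 and 2.79. LINC01060, at 12.6 CPM with TGFB1 and 7.83 CPM untreated and outside the naming rule, was singled out after its values were seen: its Fano factor was 2.84 with TGFB1 and 2.05 untreated, and in cluster 3 it was 3.58.

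The authors' clustering divided the cells into 11 clusters, most of which came nearly wholly from 1 library. Clusters 0, 3, 4 and 5 held 5303, 2543, 2421 and 1218 TGFB1 cells, against 16, 0, 11 and 6 untreated cells. Clusters 1, 2 and 6 held 56, 46 and 21 TGFB1 cells, against 3687, 3094 and 842 untreated cells. Clusters 7, 9 and 10 were smaller and mixed, with 303, 183 and 113 TGFB1 cells and 274, 108 and 33 untreated cells. Cluster 8, also small, was mostly TGFB1 cells, with 348 against 30 untreated cells. Clusters were made from the expression of these same cells, so a cluster set against the rest is a description. A cluster that holds mostly 1 library may be that library and not a kind of cell.

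Summed LINC UMIs differed more between clusters than between the libraries. Cluster 9 had 3445 CPM (3395 to 3496), cluster 1 had 2992 (2980 to 3003), cluster 0 had 2512 (2502 to 2523) and cluster 3 had 2202 (2190 to 2214). Cluster 2 had 1548 (1537 to 1558) and cluster 4 had 1357 (1346 to 1368). Both libraries thus contained clusters with high and with low sums. Cluster 5, whose cells had a median of 2562 UMIs, had 1916 CPM (1872 to 1960).

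**Figure D3:**
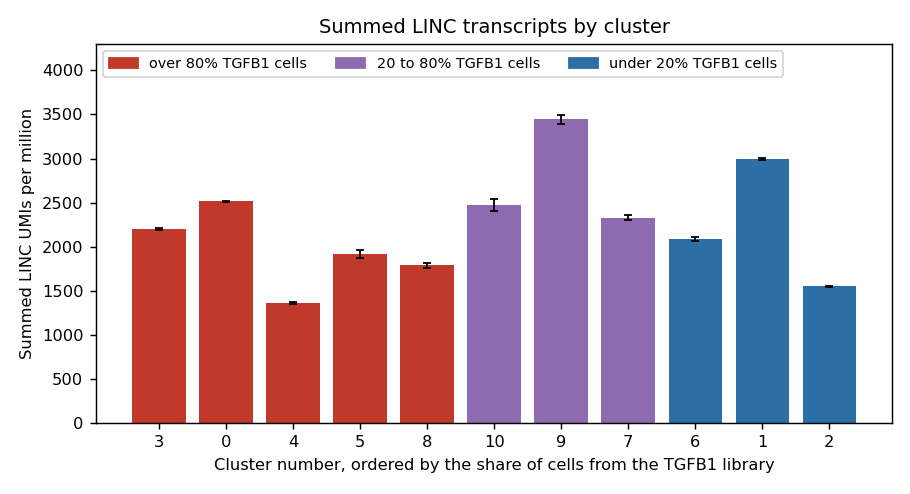
Summed UMIs of all rows named LINC, as CPM of the cluster, with exact 95% Poisson intervals, for the 11 clusters ordered by the share of TGFB1 cells. Cluster 9 had 3445 CPM and cluster 4 had 1357 CPM.

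MALAT1 and NEAT1, long non-coding RNAs that stay in the nucleus, moved with the LINC sum across clusters. MALAT1 was at 34776 CPM in cluster 9 and 24077 CPM in cluster 1, but at 9877 CPM in cluster 2 and 7847 CPM in cluster 4. NEAT1 was at 5274 and 4651 CPM in clusters 9 and 1, and at 1557 and 1202 CPM in clusters 2 and 4. The order was not the same throughout, since cluster 7, with 31898 CPM of MALAT1, had a LINC sum of 2328 CPM. The part of nuclear RNA content in the LINC sums was not tested.

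Of the 88 genes, 29 (33.0%) had their highest CPM in cluster 9, beside 21.4% of all 10927 genes. A further 18 (20.5%, beside 9.90% of all genes) were highest in cluster 1 and 10 (11.4%, beside 5.15%) in cluster 3. In cluster 6, 2 of the 88 (2.27%) were highest, beside 20.2% of all genes, and in cluster 4 none was, beside 3.72% of all genes. The lowest CPM lay in cluster 4 for 28 (31.8%, beside 27.6% of all genes) and in cluster 2 for 21 (23.9%, beside 18.4%). Those 2 shares are near those of all genes, but others were not. Cluster 8 was lowest for 14.8% of the 88 genes, beside 6.97% of all genes, and cluster 6 for 9.09%, beside 5.43%. Cluster 9 was lowest for 4.55%, beside 9.68% of all genes.

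**Figure D4:**
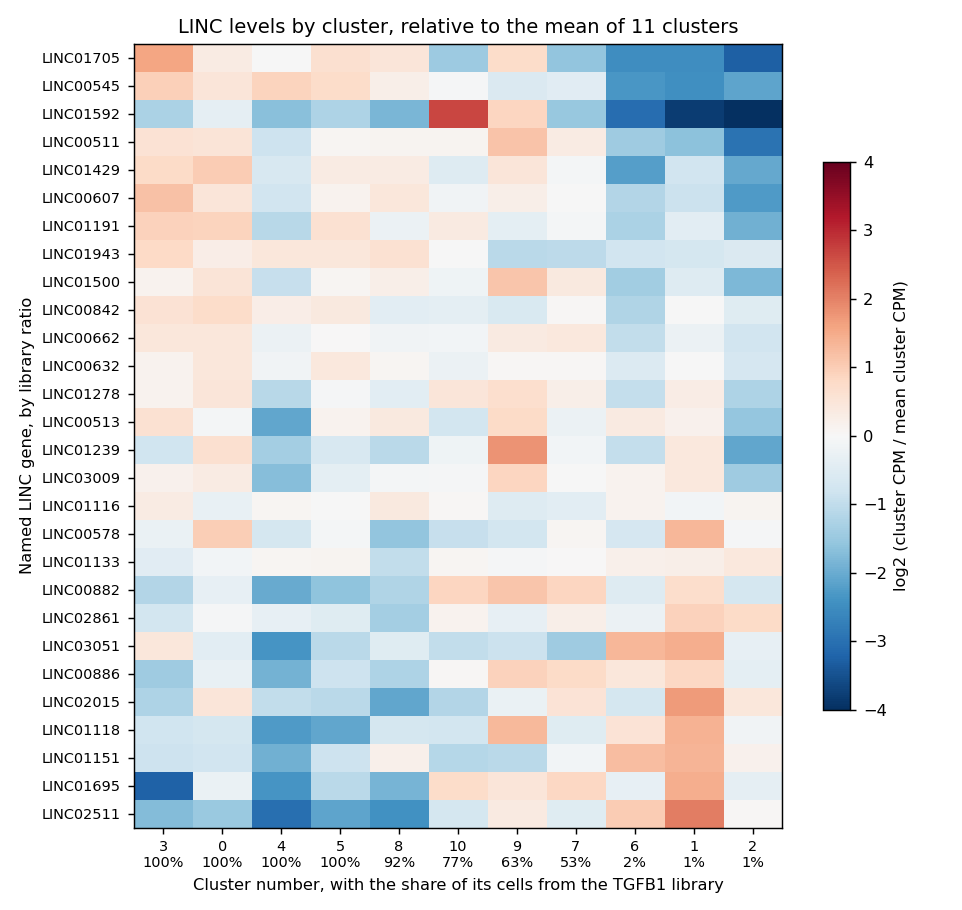
log2 of the CPM in a cluster over the mean CPM of the 11 clusters for the 28 named LINC genes, from the highest library ratio at the top to the lowest at the bottom. Clusters are ordered by the share of their cells that came from the TGFB1 library, printed under each number. LINC01592 stands out in cluster 10, at 216 CPM, LINC01239 in cluster 9, at 242 CPM, and LINC02511 in cluster 1, at 124 CPM.

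A fixed rule was used for LINC genes particular to 1 cluster. It asked for at least 5 CPM and 20 UMIs in the top cluster and at least 2 times the CPM of the next. The rule took 4 of the 88 (4.55%), LINC01592, LINC01239, LINC02511 and LINC02015, and 1.44% of all genes at 5 CPM or more. LINC01592 was the most sharply placed. It had 216 CPM in cluster 10 and 61.4 CPM in cluster 9, while its CPM in the other 9 clusters ran between 1.58 in cluster 2 and 26.0 in cluster 0. It was seen in 54.1% of cluster 10 cells, 20.6% of cluster 9 cells and 1.91% of cluster 2 cells.

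Within cluster 10, LINC01592 had 272 CPM (245 to 302) in 113 TGFB1 cells and 115 CPM (91.7 to 142) in 33 untreated cells. Both libraries thus had it high in that cluster. Its counts there were bunched, with a Fano factor of 6.18 at equal depth. Cluster 10 also held mural marker transcripts, whose sum over 6 genes was 236 CPM there and between 11.7 and 21.3 CPM in the other clusters. MYH11, a smooth muscle myosin, was at 118 CPM there, NOTCH3 at 39.9, MCAM at 38.0 and RGS5 at 28.7 CPM. The other mural markers were low: DES was at 1.95 CPM, and CSPG4, at 9.73 CPM, was higher in clusters 6 (12.1 CPM) and 8 (11.8 CPM). KRT18, a keratin of simple epithelia, was at 548 CPM in cluster 10, but of the other epithelial markers KRT8 was at 7.30 CPM and EPCAM and CDH1 were at 0 CPM there. The part of these transcripts' cells in the level of LINC01592 was not tested.

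LINC01239 lies on chromosome 9 and had 242 CPM in cluster 9, 110 CPM in cluster 0 and 93.9 CPM in cluster 1, against 16.6 CPM in cluster 2. It was seen in 74.9% of cluster 9 cells and 18.9% of cluster 2 cells. In cluster 9 it had 266 CPM (248 to 284) in TGFB1 cells and 204 CPM (185 to 225) in untreated cells. The gene was therefore nearly level between the libraries as wholes and 14.6 times as high in its top cluster as in its lowest.

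LINC02511 had, in the clusters of TGFB1 cells, 10.6 CPM in cluster 0, 8.90 CPM in cluster 3, 6.84 CPM in cluster 5 and 3.65 CPM in cluster 4. In the clusters of untreated cells it had 124 CPM in cluster 1, 61.4 CPM in cluster 6 and 30.8 CPM in cluster 2, and in the mixed cluster 9 it had 38.3 CPM, which pools 9.91 CPM in TGFB1 cells and 84.8 CPM in untreated cells. The rule of 2 times the next cluster was thus met with the libraries pooled; among untreated cells, cluster 1 was under 2 times cluster 9. Untreated cells themselves differed, with 59.9% of cluster 1 cells but 29.1% of cluster 2 cells holding a UMI of it. LINC02015 had 7.90 CPM in cluster 1 and 3.44 CPM in cluster 7, and was under 1 CPM in cluster 3 (0.929 CPM), cluster 10 (0.973 CPM) and cluster 8 (0.477 CPM).

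LINC01705 and LINC00545, which had the highest library ratios, were not particular to 1 cluster by the rule, while LINC01592, with the next highest, was. LINC01705 had 12.7 CPM in cluster 3, 7.12 CPM in cluster 9, 6.58 CPM in cluster 5, 5.96 CPM in cluster 8, 5.25 CPM in cluster 0 and 4.13 CPM in cluster 4. In the clusters of untreated cells it had 0.664, 0.3497 and 0.672 CPM in clusters 1, 2 and 6. LINC00545 had 10.7 CPM in cluster 3, 10.4 CPM in cluster 4, 9.21 CPM in cluster 5 and 7.82 CPM in cluster 0, and 0.932, 1.20 and 1.01 CPM in clusters 1, 2 and 6. LINC00607 had 103 CPM in cluster 3 and 64.4 CPM in cluster 0, against 25.2 CPM in cluster 1 and 9.53 CPM in cluster 2.

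LINC03051 was lower with TGFB1 as a whole, and its clusters overlapped between the libraries. In the clusters of TGFB1 cells it had 130 CPM in cluster 3, 70.7 CPM in cluster 0 and 18.4 CPM in cluster 4. In the clusters of untreated cells it had 258 CPM in cluster 1, 236 CPM in cluster 6 and 74.3 CPM in cluster 2. LINC00578 likewise had its 2 highest values in a cluster of each library, with 199 CPM in cluster 0 and 254 CPM in cluster 1, and its share of cells was 61.2% in cluster 0 and 63.9% in cluster 1.

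Clusters that held cells of both libraries allowed the ratio to be set out within a cluster. The 18 genes were picked on the ratio of the whole libraries, which hold these cells too, so their counts are set beside those of all 1056 genes picked in the same way. In cluster 9, 15 of the 18 had at least 20 UMIs, and all 15 had a ratio on the same side of 1 as in the libraries, 8 of them by 2-fold or more; of all such genes 94.9% were on the same side and 51.1% were so by 2-fold. In cluster 7, 17 had 20 UMIs, 14 were on the same side and 6 were 2-fold apart, beside 92.4% and 19.9% of all such genes. In cluster 1, with 56 TGFB1 cells, all 18 had 20 UMIs, 11 were on the same side and 2 were 2-fold apart, beside 69.5% and 9.01%. The 2 genes were LINC01943, with 14.3 CPM in TGFB1 cells and 4.99 CPM in untreated cells (ratio 2.87, 1.63 to 4.71), and LINC01429, with 10.7 and 4.37 CPM (ratio 2.46, 1.26 to 4.35).

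LINC02511 shows how the clusters differed. In cluster 9 it had 9.91 CPM in TGFB1 cells and 84.8 CPM in untreated cells, a log2 ratio of -3.10. In cluster 7 it had 10.3 CPM in TGFB1 cells and 31.8 CPM in untreated cells, a log2 ratio of -1.63. The 56 TGFB1 cells of cluster 1 had 103 CPM (85.0 to 124), against 124 CPM (122 to 127) in the untreated cells there, a log2 ratio of -0.27. Since the clusters were made from expression, TGFB1 cells that were placed with untreated ones resemble them by construction.

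For LINC00511 the ratio was 2.37 (1.97 to 2.86) in cluster 7 and 1.29 (1.03 to 1.62) in cluster 9. LINC00607 had a ratio of 1.91 (1.62 to 2.27) in cluster 7 and 1.71 (1.31 to 2.27) in cluster 9, and in cluster 1 its ratio of 1.07 had an interval of 0.717 to 1.53, whose upper bound lay under the 3.41 of the whole libraries. LINC01592 had 85.5 CPM in TGFB1 cells and 21.8 CPM in untreated cells of cluster 9 (ratio 3.91, 2.83 to 5.53), and 15.3 CPM and 8.33 CPM in cluster 7 (ratio 1.84, 1.32 to 2.59). LINC03051 had 33.1 CPM in TGFB1 cells and 37.0 CPM in untreated cells of cluster 7, a ratio of 0.895 whose interval (0.743 to 1.08) held 1 and whose lower bound lay above the 0.418 of the whole libraries. In cluster 1 it was on the other side of 1, with 314 CPM in TGFB1 cells and 257 CPM in untreated cells (ratio 1.22, 1.10 to 1.36).

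**Figure D5:**
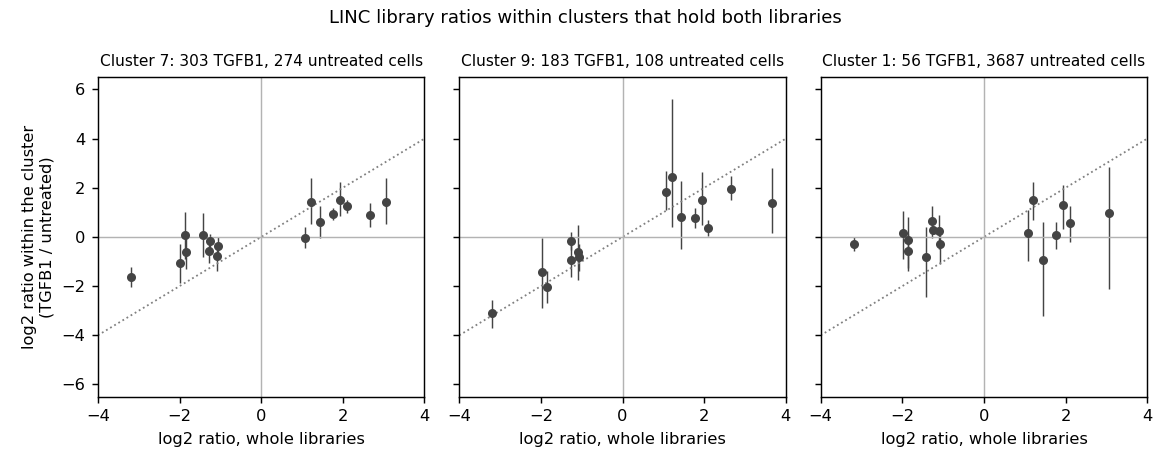
log2 ratio, TGFB1 over untreated, within clusters 7, 9 and 1 (vertical axis) against the ratio of the whole libraries (horizontal axis) for the LINC genes at least 2-fold apart, with exact 95% intervals; genes with 0 UMIs on one side are not drawn. The dotted line marks equal values. LINC02511, leftmost in each panel, was at -1.63 in cluster 7, -3.10 in cluster 9 and -0.27 in cluster 1.

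By position, 87 of the 88 genes were found in RefSeq. Chromosome 2 held 14 of them and chromosome 1 held 10. The nearest protein-coding gene at 5 CPM or more lay within 100 kb for 47 of the genes, of which 4 overlapped it. The LINC gene and this neighbour had log2 ratios of the same sign in 25 of 47 pairs. The neighbour was itself 2-fold apart in 5 pairs (10.6%, beside 9.66% of all genes), in the same direction as the LINC gene in 4. Among the 18 genes at least 2-fold apart, 9 had such a neighbour, with the same sign in 6. How often unrelated genes share a sign was not computed, so these counts of pairs are descriptions only.

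Of those neighbours, 3 were at least 2-fold apart. LINC00545 lay 22.9 kb from MEDAG, which promotes adipocyte differentiation and had 168 CPM with TGFB1 and 63.9 CPM untreated (log2 ratio 1.39). LINC01118 lay 53.5 kb from SOCS5, of the suppressor of cytokine signalling family, which had 25.9 CPM with TGFB1 and 61.7 CPM untreated (log2 ratio -1.25). LINC01592 lay 92.8 kb from C8orf34 and went the other way: C8orf34 had 2.42 CPM with TGFB1 and 5.56 CPM untreated (log2 ratio -1.20).

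LINC01191 lay 6.73 kb from ACTR3, a subunit of the Arp2/3 actin nucleator, whose log2 ratio was 0.84, with 391 CPM with TGFB1 and 218 CPM untreated. LINC00511 lay 5.48 kb from the zinc transporter gene SLC39A11, which had 39.0 CPM with TGFB1 and 36.2 CPM untreated (log2 ratio 0.11). LINC02861 lay 2.94 kb from the adenylate cyclase gene ADCY9 (log2 ratio -0.48), LINC00886 40.6 kb from TIPARP (0.17), LINC01429 63.4 kb from ATP9A (0.18) and LINC01151 86.3 kb from ZHX2 (0.16).

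Beyond 100 kb, LINC00607 lay 175 kb from FN1, the gene of the matrix protein fibronectin, which had 12426 CPM with TGFB1 and 7623 CPM untreated (log2 ratio 0.70). LINC02511 lay 306 kb from the protocadherin gene PCDH18, which had 65.7 CPM with TGFB1 and 131 CPM untreated (log2 ratio -0.99). LINC01239 lay 637 kb from CDKN2B, which encodes a cyclin-dependent kinase inhibitor known to be induced by TGFB1. This pair was outside the naming rule and was singled out after its values were seen. CDKN2B had 306 CPM with TGFB1 and 40.0 CPM untreated (log2 ratio 2.94), against 0.20 for LINC01239. LINC01705 lay 300 kb from the phosphatase gene DUSP10, whose log2 ratio was -0.87.

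Other nearest genes beyond 100 kb were KRCC1 for LINC01943, BBX for LINC00882, IGSF11 for LINC03051, TBL1XR1 for LINC02015, DAAM1 for LINC01500 and N6AMT1 for LINC01695. Their log2 ratios were -0.19, 0.01, -0.13, -0.71, -0.90 and -0.18. DAAM1 was thus on the other side of 1 from LINC01500. Of the 4 overlapping pairs, LINC02456 had a log2 ratio of 0.85 and IGF1, the insulin-like growth factor gene, of 0.98, LINC02456 at 12.3 CPM with TGFB1 and 6.82 CPM untreated, and IGF1 at 313 and 158 CPM. The log2 ratios were -0.90 for LINC01089 and -0.20 for SETD1B, a histone methyltransferase gene, 0.04 for LINC03009 and 0.09 for POMZP3, and -0.08 for LINC00630 and 0.03 for ARMCX5-GPRASP2. Overlapping genes can share reads, which could not be examined here.

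Some LINC genes neighbour each other. LINC01116 and LINC01117 lie 0.145 kb apart, with log2 ratios of 0.02 and -0.26. LINC00578 and LINC02015 lie 64.2 kb apart on chromosome 3 and both had their highest CPM in cluster 1, with log2 ratios of -0.47 and -1.43. LINC01503, described with super-enhancers in squamous carcinoma, and LINC00963 lie 141 kb apart on chromosome 9 and had log2 ratios of 0.83 and -0.41.

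Long non-coding RNAs without a LINC symbol were also on both sides. A list of 52 was examined, some of them antisense-named or microRNA host genes that the classes above also hold. Of the 52, 48 were at 5 CPM or more, with a median log2 ratio of -0.18. Among these 48, 7 were at least 2-fold higher with TGFB1 and 6 lower, beside 3.61% and 6.05% of all genes. CARMN, a smooth muscle transcript, had 129 CPM with TGFB1 and 41.6 CPM untreated, and DNM3OS, host of the miR-199 and miR-214 cluster, had 73.3 and 26.9 CPM. FENDRR, a transcript of lateral mesoderm next to FOXF1, had 3.33 CPM with TGFB1 and 12.3 CPM untreated, and LUCAT1 had 1.16 CPM with TGFB1 and 5.53 CPM untreated.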

How the data were processed

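Transcripts of single cells from 2 cultures were measured in 1 library each. The submitters' processing notes name the tools Seurat and Cell Ranger (version 9.0.1) and the genome build GRCh38, without roles. The sources used here do not give filters, annotation or use of strand. The authors' deposited matrix is of raw UMI counts, with 20656 cells and 38606 genes. A table of cells, also deposited by the authors, lists for each the UMI count, the gene count and the percent of mitochondrial UMIs. It also holds other columns, the library name and the authors' cluster number, a deposited label and not a measured score. Doublets were not called, and reads shared between near-identical or overlapping genes could not be assessed.

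The members, gene lists, tests and alternatives were chosen with earlier results of these data known. UMIs were summed per library or cluster and divided by the total (CPM). Each ratio divides TGFB1 by untreated and has an exact conditional binomial 95% interval, CPM carries exact Poisson and shares of cells exact (Clopper-Pearson) binomial intervals, all for counting error only. With 1 library per group no p-value was computed. A count of 0 allows up to 3 UMIs, or 0.0144 CPM in the TGFB1 library and 0.0178 CPM in the untreated library. Y-linked genes were left out of the steps per gene.

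Genes named with values are those at least 2-fold apart, the 12 with the most UMIs by mean CPM and those particular to a cluster. Also named are the 3 genes on each side of the 5 CPM minimum, and the nearest coding genes of genes at least 2-fold apart. Others were named after their values were seen (the flagged genes, LINC01060, overlapping or adjacent pairs, CDKN2B, CARMN, DNM3OS, FENDRR and LUCAT1). For shares and spread at equal depth, 7500 UMIs were drawn from each cell without replacement, leaving out 3225 TGFB1 cells and 455 untreated cells. Positions and promoters come from RefSeq (GRCh38.p14), matched by symbol or synonym, and were not checked against the annotation the authors counted on. Other scalings were TMM (edgeR 4.0.16, R 4.3.3; factors 0.948 with TGFB1 and 1.06 untreated) and the median of ratios (0.936 and 1.07). Of the steps, only the ratio interval and the cluster rule were tested on simulated data, which were Poisson counts. The tools were matplotlib 3.10.9, pandas 2.3.3, scipy 1.17.1, numpy 2.4.6 and Python 3.11.15.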

Additional observations from a re-analysis of the deposited data

Results flagged for a closer look

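Outside the 88 genes, 2 LINC genes below 5 CPM were more than 10-fold apart with at least 1 CPM in the TGFB1 library. LINC01655 had 2.14 CPM with TGFB1 and 0.148 CPM untreated (447 and 25 UMIs), 14.5-fold higher (9.67 to 22.6). LINC02086 had 1.78 CPM with TGFB1 and 0.0473 CPM untreated (372 and 8 UMIs), 37.6-fold higher (18.9 to 87.7).

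In 4 genes the ratio of TGFB1 over untreated was above 1 in one cluster and below 1 in another, with neither interval holding 1. These differences between clusters were not tested across samples, since each library is 1 sample, and the 88 genes were compared in 3 clusters each. LINC01036 had a log2 ratio of 1.38 in cluster 7 and -0.89 in cluster 9. LINC02456 had 1.19 in cluster 1 and -0.65 in cluster 9. LINC01278 had 0.45 in cluster 1 and -0.34 in cluster 9. LINC01133 had 0.26 in cluster 1 and -0.40 in cluster 7.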

How the results depend on the processing

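The 9 genes higher and 9 lower with TGFB1 became 14 higher with the median of ratios. A minimum of 1 CPM gave 16 higher and 58 lower. Of the 162 LINC rows that it added, 4.32% were higher and 30.2% lower, beside 5.25% and 14.9% of all genes at 1 to 5 CPM. A minimum of 20 CPM gave 3 and 2 of 31 (9.68% and 6.45%), beside 3.85% and 4.79% of all genes at that level. The 4 genes at least 5-fold apart became 15 at 1 CPM and 2 at 20 CPM, where the share of all genes was not computed. The median log2 ratio was 0.12 with TMM, 0.16 with the median of ratios and -0.36 at 1 CPM. The summed LINC ratio of 0.903 was 1.00 with TMM and 1.03 with the median of ratios (both chosen after seeing the data), 0.929 with equal weight for each cell, 0.907 after thinning, 0.896 without clusters 7, 9 and 10, and 0.895 without cells holding an MKI67 or TOP2A UMI. The 4 genes particular to a cluster, beside 157 of all 10927 genes, became 1 (LINC01592) at 3 times the next cluster, beside 38. In cells of the library that holds most of the cluster there were 7, beside 165 of all genes, adding LINC00862, LINC01500 and LINC01695. After thinning there were again 4, beside 170 of all genes, with LINC01705 in and LINC02015 out. Median shares of cells were 7.34% with TGFB1 and 8.13% untreated after thinning. The causes of these shifts were not tested, except that the CPM minimum changes how many genes enter.

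Over 9 alternatives, 155 of 162 log2 ratios of the 18 genes stayed past 2-fold and none changed sign; the 7 others belong to LINC01500, LINC00882 and LINC02861. Leaving out the TGFB1 cells in clusters 1, 2 and 6, chosen after seeing the data, kept 9 higher and 9 lower. No paired analysis was possible because each condition has 1 library; for the same reason no library was left out. Depth limits genes near 5 CPM in small clusters most, where a count of 0 in cluster 10 allows 1.46 CPM.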
